A study of Mus musculus with 42 samples.

Results

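The neural crest genes described here are 10 genes, *Sox10*, *Foxd3*, *Tfap2a*, *Tfap2b*, *Sox9*, *Snai2*, *Ets1*, *Dlx2*, *Dlx5* and *Erbb3*, a list of names and not a sorted cell population. All 10 were found among the 56953 genes of the count table by matching Ensembl identifiers to GENCODE symbols. They were read in the heart field of 21 mouse embryos at stage E8.5i, each cut along the midline into a left and a right piece that were sequenced as separate libraries, 42 in all. The tissue held the dorsal pericardial wall down to the second somite, after the head, back, lower trunk and heart tube had been removed, so it was a mixture of cell types. The wild-type group had 5 embryos with rightward heart looping, of which 4 were male and 1 was female. The other embryos were homozygous for the lnks allele of *Ccdc40* (Ccdc40lnks/lnks), a chemically induced nonsense mutation in a gene for a component of motile cilia, and the study uses them as a model without flow at the node. Of these, 11 looped to the right (6 males and 5 females, here the rightward mutants) and 5 had an inverted loop (3 males and 2 females, here the inverted mutants). The wild types were Ccdc40+/+, and the study took littermates as controls where it could. Their strain background is spelled C56Bl6J by the study. The study divided the rightward mutants further, into situs solitus and heterotaxy, by a grouping that the sample labels do not carry. That division was not used, so each value of the rightward mutants pools both laterality phenotypes.

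Neural crest cells form at the border of the neural plate, leave the dorsal neural tube and migrate into the head, the pharyngeal arches and, from the caudal hindbrain, the outflow tract of the heart. *Tfap2a* and *Tfap2b* encode AP-2 factors that act early in this lineage, *Foxd3*, *Sox9*, *Sox10*, *Snai2* and *Ets1* encode factors of specification and emigration, *Erbb3* encodes a neuregulin receptor of migrating cells, and *Dlx2* and *Dlx5* encode homeodomain factors of the arches. None of these genes is restricted to the crest. *Sox9*, *Sox10*, *Tfap2a* and *Dlx5* are also used in the otic placode or surface ectoderm, and *Ets1* in endothelium.

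Each library held between 36073684 and 62970327 counted reads, with a median of 43458644. *Ccdc40*, the mutated gene, was between 15.2 and 26.5 CPM (read counts scaled to library depth by the TMM method) in the wild-type libraries, between 8.83 and 14.6 CPM in the rightward mutants and between 10.0 and 14.8 CPM in the inverted mutants, so wild types and mutants did not overlap. Heart field genes were present in every library, with a summed level of 317 to 934 CPM for 10 of them including *Isl1*, *Tbx5* and *Nkx2-5*. A group is a set of separate embryos, and the left and right libraries of an embryo were paired in every test of side. Because the pieces were sequenced in bulk, fewer cells of a type and less RNA per cell cannot be told apart.

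The crest genes ranged from among the well-expressed to the barely detected. Per kilobase of exon, the median level over the 42 libraries was 43.5 CPM for *Sox9*, 17.7 for *Snai2*, 11.6 for *Ets1*, 5.09 for *Tfap2a* and 3.45 for *Erbb3*. The arch genes *Dlx2* and *Dlx5* followed at 2.06 and 2.03 CPM per kilobase, then *Sox10* at 0.800, *Tfap2b* at 0.774 and *Foxd3* at 0.0770. For every pair of neighbours in this order the ranges over libraries overlapped, so the order is one of medians. *Foxd3* had a median of 9.5 counts, at most 40, and 0 counts in 5 libraries, where 0 still allows a level of up to 3 counts, or 0.0674 to 0.0818 CPM. This limit covers counting error only. *Foxd3* also shares exon sequence with the antisense transcript Gm12688, which had a median of 5 and up to 60 counts, so its counts are uncertain.

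Of the 9 members with counts in every library, *Tfap2b* had the widest range, with a highest level 307 times its lowest, followed by *Sox10* with a ratio of 212. Their lowest libraries held 4 and 3 counts, so these ratios are imprecise, and *Foxd3*, with 0 in some libraries, has no such ratio. *Dlx5* spanned a ratio of 50.9 and *Dlx2* of 12.4. *Snai2* spanned 1.95, from 27.5 to 53.5 CPM, the narrowest of the 9.

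**Figure D1:**
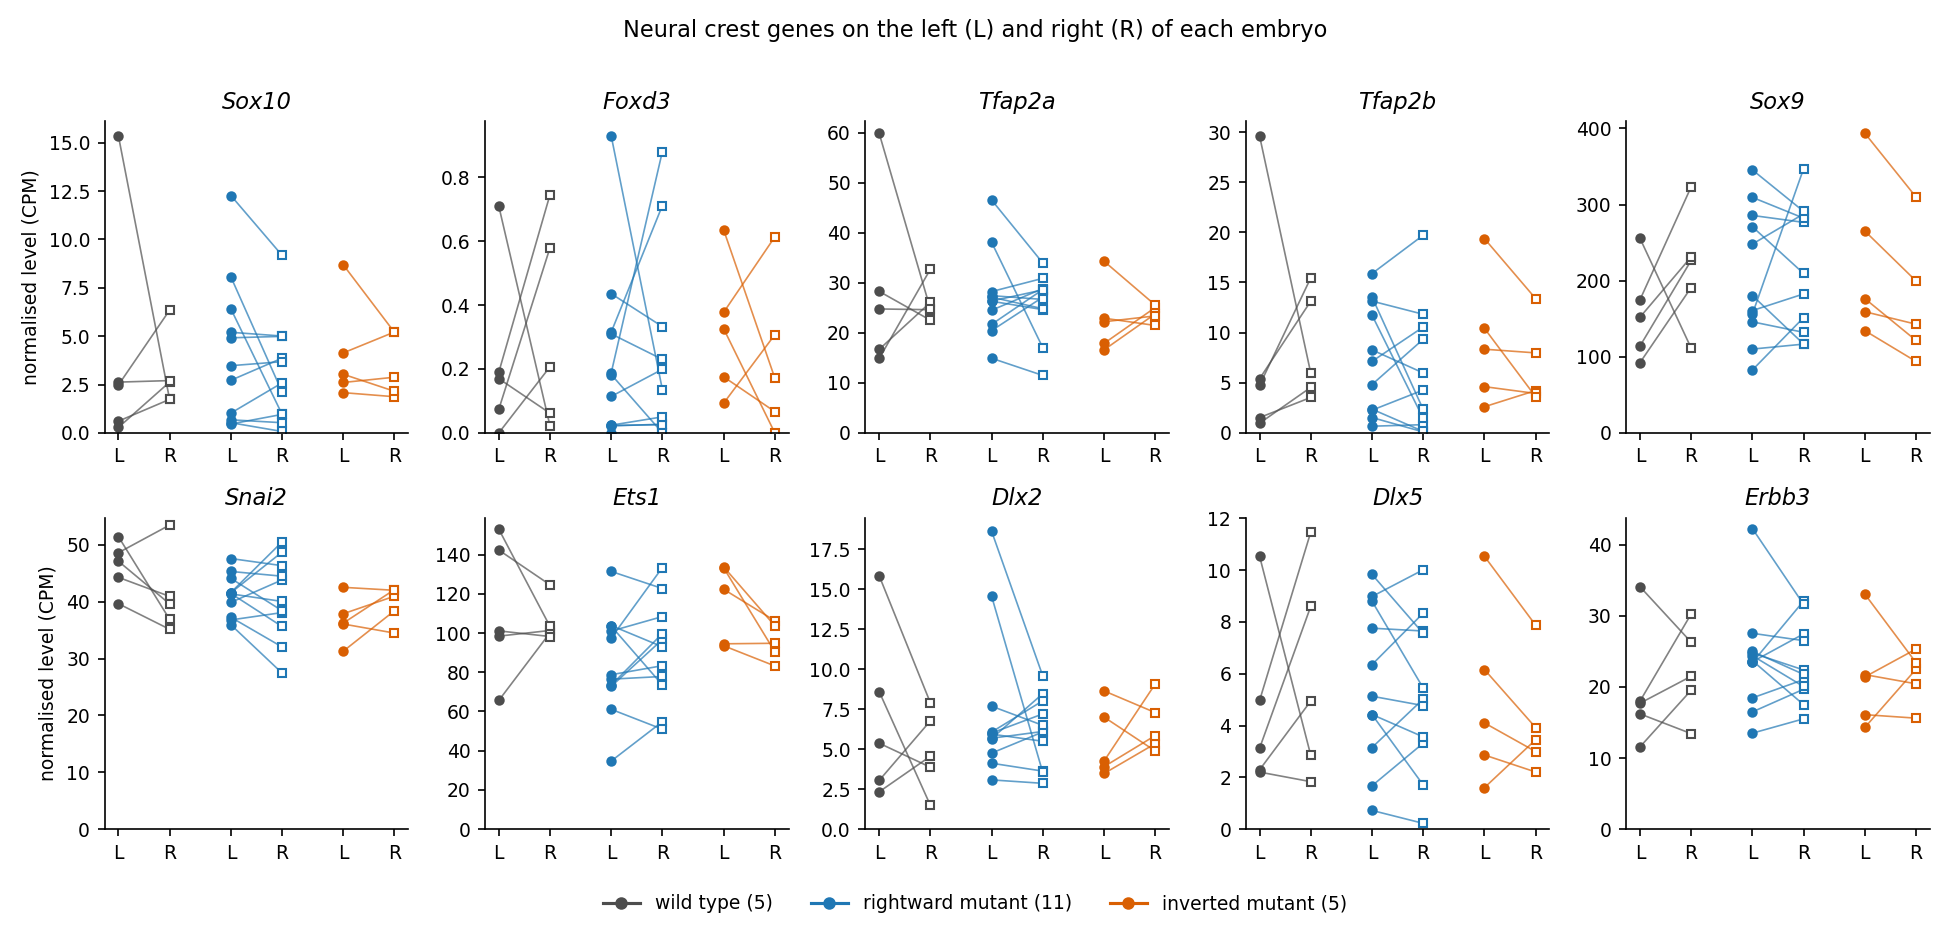
Normalised level (CPM, linear axis from 0) of each gene on the left (filled circles) and right (open squares) of every embryo, joined by a line, in 5 wild types (grey), 11 rightward mutants (blue) and 5 inverted mutants (orange). Lines run in both directions in wild types and rightward mutants, and for *Sox9* all 5 lines of the inverted mutants fall from left to right.

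To ask whether the crest genes were asymmetric, right was compared with left within each group, with the embryo as a block, with edgeR (quasi-likelihood test, p adjusted by Benjamini-Hochberg over all genes tested). *Sox9* was the 1 member that passed, in the inverted mutants, where it was higher on the left. In that comparison 2.04% of 22960 genes passed, 1.72% as higher on the right and 0.318% as higher on the left. In the wild types 0 of 10 members passed by edgeR or DESeq2 and 0 had an unadjusted p under 0.05, where 0% of all genes passed by edgeR, with 19 passing by DESeq2 and 639 under an unadjusted p of 0.05. In the rightward mutants 0 of 10 members passed by either tool and 0 had an unadjusted p under 0.05, where 0.0263% of all genes passed.

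*Sox9* (ENSMUSG00000000567, GRCm39 chr11:112673009-112678586, plus strand) encodes an HMG-box factor of premigratory crest, cartilage and the otic vesicle. In the inverted mutants its left and right levels were 394 and 310 CPM in embryo 10_3, 265 and 200 CPM in 32_2, 176 and 122 CPM in 2_7, 159 and 143 CPM in 4_6, and 134 and 93.9 CPM in 18_2. The left was higher in 5 of 5 embryos, although the left and right ranges overlapped because the embryos differed in level. The mean log2 ratio of right over left was -0.39 ± 0.15 (SD, n = 5), and the fitted log2 ratio was -0.38 (SE 0.06, adjusted p = 0.0162 by edgeR). An exact two-sided sign-flip test over these embryos gave p = 0.0625, the smallest that 5 embryos allow, with 30 such tests computed.

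In the wild types the left and right levels of *Sox9* were 114 and 227 CPM in embryo 10_1, 92.3 and 191 CPM in 8_1, 175 and 323 CPM in 17_7, 152 and 231 CPM in 7_1, and 256 and 112 CPM in 22_4. The right was thus higher in 4 of 5 embryos, by log2 ratios of 0.60 to 1.05, and 22_4 stood on the other side at -1.20. The mean log2 ratio was 0.47 ± 0.94 (SD, n = 5) and did not pass the test (fitted log2 ratio 0.49, SE 0.31, edgeR adjusted p = 1.00). Without 22_4 the fitted log2 ratio of *Sox9* was 0.88 (SE 0.08, edgeR adjusted p = 0.417) and did not pass. In the rightward mutants the ratios of *Sox9* ran from -0.63 through a median of -0.05 to 1.15, with the right higher in 5 of 11. Counts of the antisense gene BC006965, which overlaps *Sox9* in exon sequence, had a median of 30.5 against 9136 for *Sox9*.

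The direction of *Sox9* was the same in every alternative fit, and its log2 ratio stayed near the reported value, but the call was lost in 5 of 12. These were the fits without embryo 18_2 (log2 ratio -0.37, edgeR adjusted p = 0.0621) or 32_2 (-0.38, adjusted p = 0.0922), in males alone (-0.34, adjusted p = 0.275), with the spread estimated over all 42 libraries (-0.39, adjusted p = 0.480) and with no replicate block (-0.37, adjusted p = 0.753). DESeq2, which called 7.64% of all genes in this comparison, kept *Sox9* and added *Ets1*.

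*Sox10* (ENSMUSG00000033006, chr15:79039108-79049469, minus strand) encodes the HMG-box factor of migrating crest, and *Tfap2b* (ENSMUSG00000025927, chr1:19279138-19309069, plus strand) an AP-2 factor. Their levels were the most alike of the 45 pairs of members. Over the 21 embryos, with group means removed, the mean log2 CPM of both sides correlated at Pearson's r = 0.97 (Spearman's rho 0.96), and at 0.97 without the 2 embryos farthest from the median. These points share library depth and dissection, so the correlation is a description. The 250 bases before the start of the canonical transcript are shown for *Tfap2b* and for *Tfap2a*, the 1 member whose window held the palindromic AP-2 motif. The windows were read 5′ to 3′ on the gene's strand from GRCm39, at chr1:19278888-19279137 for *Tfap2b* and chr13:40887452-40887701 for *Tfap2a*, with the motif in capitals.
Tfap2b: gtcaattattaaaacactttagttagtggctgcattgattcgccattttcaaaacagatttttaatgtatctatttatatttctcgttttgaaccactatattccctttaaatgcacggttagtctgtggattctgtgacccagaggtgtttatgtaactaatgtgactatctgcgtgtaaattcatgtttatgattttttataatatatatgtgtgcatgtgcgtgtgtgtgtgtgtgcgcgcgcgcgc
Tfap2a: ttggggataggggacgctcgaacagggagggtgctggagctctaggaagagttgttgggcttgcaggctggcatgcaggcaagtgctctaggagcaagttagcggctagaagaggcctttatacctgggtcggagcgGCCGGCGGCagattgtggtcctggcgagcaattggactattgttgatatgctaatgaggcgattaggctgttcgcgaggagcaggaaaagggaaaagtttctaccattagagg
The motif GCCNNNGGC was searched on both strands and lay in 13.2% of 21664 protein-coding promoters of the same length, and its first base in *Tfap2a* was at position -113 from the start. Guanine and cytosine made up 36.0% of the *Tfap2b* window and 54.8% of the *Tfap2a* window. The SOX motif ACAAAG lay in 1 member, *Dlx5*, and in 15.9% of all promoters. The Snail E-box CAGGTG (17.6% of all promoters) and the ETS motif CCGGAAG (6.86%) lay in 0 of the 10 windows. These are matches of letters in these windows and say nothing of binding.

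**Figure D2:**
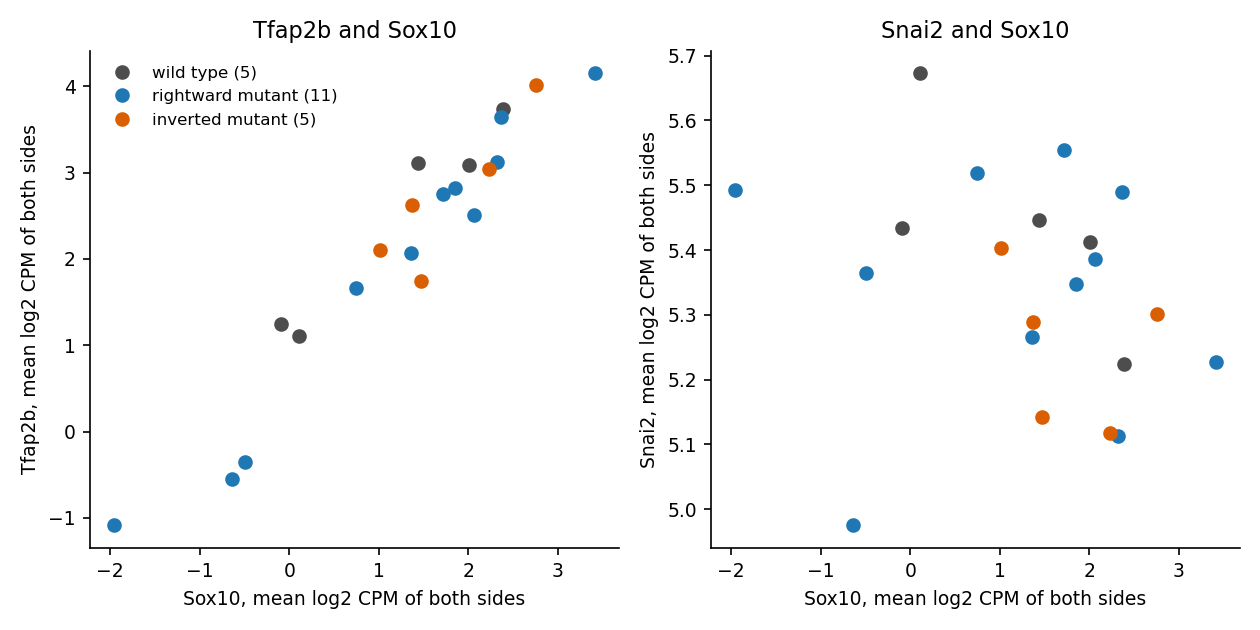
Mean log2 CPM of both sides of *Tfap2b* and *Snai2* (vertical axes) against that of *Sox10* (horizontal axis) in 5 wild types (grey), 11 rightward mutants (blue) and 5 inverted mutants (orange), 1 point per embryo. *Tfap2b* rises with *Sox10* (r = 0.97 with group means removed), and *Snai2* does not (r = -0.19).

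For *Sox10* the left and right levels of the wild types were 15.3 and 1.74 CPM in embryo 22_4, 2.48 and 6.34 CPM in 17_7, 2.62 and 2.70 CPM in 10_1, 0.607 and 1.73 CPM in 8_1, and 0.283 and 2.63 CPM in 7_1. The right was higher in 4 of 5, and 22_4 had the highest left level of all 42 libraries. The rightward mutants ran from a log2 ratio of -2.67 through a median of -0.05 to 1.30, with 3 embryos, 19_6, 15_5 and 18_1, at -2.67, -2.28 and -1.90. In the inverted mutants the left and right levels were 8.69 and 5.20 CPM in 10_3, 4.14 and 5.21 CPM in 2_7, 3.03 and 2.15 CPM in 32_2, 2.61 and 2.88 CPM in 4_6, and 2.08 and 1.87 CPM in 18_2. The sides of the inverted mutants lay close together, and their mean log2 ratio was -0.18 ± 0.44 (SD, n = 5), against 0.55 ± 2.30 (n = 5) in wild types and -0.43 ± 1.31 (n = 11) in rightward mutants.

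In the wild types the left and right levels of *Tfap2b* were 29.6 and 5.98 CPM in 22_4, 5.40 and 13.1 CPM in 17_7, 4.75 and 15.5 CPM in 10_1, 1.53 and 3.53 CPM in 7_1, and 0.966 and 4.53 CPM in 8_1, so the right was again higher in all but 22_4. In the rightward mutants the ratios ran from -3.63 through a median of -0.15 to 0.95, with 1_6, 15_5, 19_6 and 18_1 at -3.63, -3.48, -2.98 and -2.50. The last 3 of these were also the lowest for *Sox10*, whereas *Sox10* was at -0.34 in 1_6. The right libraries of 1_6 and 15_5 held 6 and 4 counts of *Tfap2b*, so these ratios depend on the prior count of 2 added to each library. In the inverted mutants the left and right levels were 19.4 and 13.4 CPM in 10_3, 10.4 and 3.61 CPM in 32_2, 8.34 and 7.98 CPM in 2_7, 4.61 and 3.93 CPM in 18_2, and 2.61 and 4.22 CPM in 4_6, with the left higher in all but 4_6. The mean log2 ratios were 0.81 ± 1.78 in wild types, -0.93 ± 1.83 in rightward mutants and -0.33 ± 0.80 (SD) in inverted mutants, and the fits did not pass in any group (edgeR adjusted p of 0.628 to 1.00).

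*Foxd3* (ENSMUSG00000067261, chr4:99544536-99546859, plus strand), a forkhead factor of premigratory crest, was too low for its ratio to be read in single embryos. In wild types its left and right counts were 27 and 1 in 22_4, 11 and 37 in 17_7, 3 and 24 in 10_1, 9 and 3 in 7_1, and 0 and 11 in 8_1. The log2 ratios over all embryos ran from -3.49 to 2.49, with no side favoured, and the right was higher in 11 of 21.

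**Figure D3:**
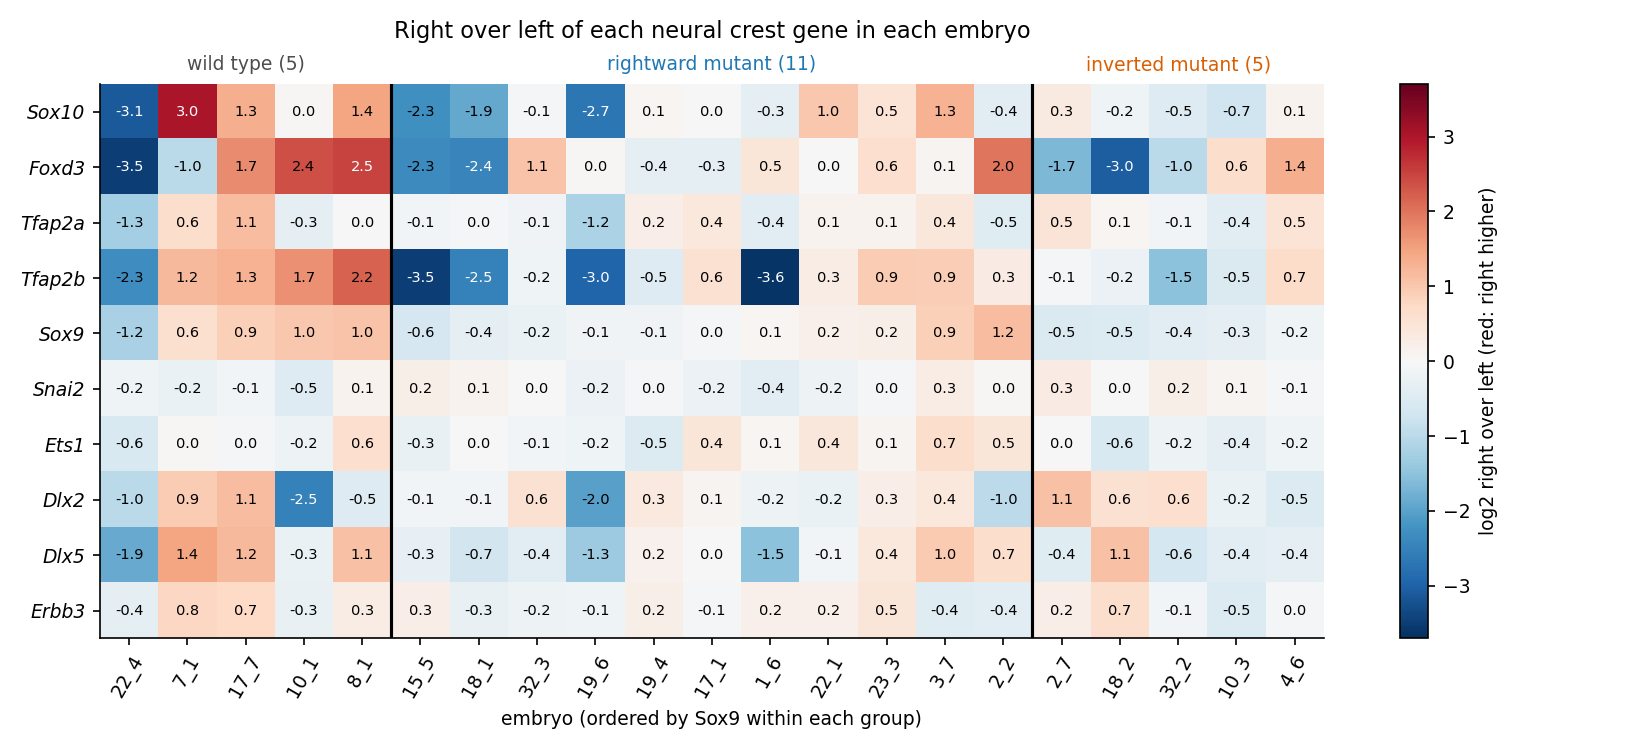
Log2 ratio of right over left (red, right higher; blue, left higher) of each gene in each of 21 embryos, ordered by *Sox9* within the wild types, the rightward mutants and the inverted mutants. Wild-type embryo 22_4 is blue for all 10 genes, and *Sox9* is blue in all 5 inverted mutants.

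The wild-type values of these genes, apart from *Snai2*, depended on embryo 22_4. Without it the fitted log2 ratio of right over left went from 0.65 to 1.44 (SE 0.47) for *Sox10*, from 0.93 to 1.58 (SE 0.21) for *Tfap2b*, from 0.65 to 1.72 (SE 0.85) for *Foxd3* and from 0.39 to 0.91 (SE 0.30) for *Dlx5*. For *Tfap2a* it went from 0.03 to 0.35, for *Erbb3* from 0.22 to 0.38, for *Ets1* from -0.04 to 0.10 and for *Dlx2* from -0.35 to -0.15. For *Snai2* it stayed at -0.18. With 4 wild types 0 of 10 members passed by edgeR (adjusted p of 0.417 to 0.990), and 4, *Sox9*, *Tfap2b*, *Dlx5* and *Sox10*, had an unadjusted p under 0.05. Of all 23365 genes in that fit 0% passed, and 956 had an unadjusted p under 0.05. Embryo 22_4 was singled out after its values were seen, with all 10 members higher on its left. The p-values without it are thus a description and no test of asymmetry.

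*Tfap2a* (ENSMUSG00000021359, chr13:40868778-40891852, minus strand), the AP-2 gene of both crest and surface ectoderm, had a narrower range, 11.5 to 59.9 CPM. Its mean log2 ratio was 0.03 ± 0.92 (SD, n = 5) in wild types, -0.09 ± 0.45 (n = 11) in rightward mutants and 0.11 ± 0.40 (n = 5) in inverted mutants. Again 22_4 was at the low end of the wild types (59.9 CPM left, 24.8 CPM right) and 17_7 at the high end (14.9 and 32.7 CPM). The overlapping antisense transcripts Gm26688, Gm47061 and Gm47067 had medians of 64, 6 and 8 counts against 1076 for *Tfap2a*.

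The arch genes *Dlx2* (ENSMUSG00000023391, chr2:71373752-71377102, minus strand) and *Dlx5* (ENSMUSG00000029755, chr6:6877804-6882092, minus strand) encode homeodomain factors. *Dlx5* ran from 0.225 to 11.5 CPM over the libraries. Its left and right levels in the inverted mutants were 10.5 and 7.88 CPM in 10_3, 6.16 and 3.92 CPM in 32_2, 4.10 and 3.00 CPM in 2_7, 2.86 and 2.21 CPM in 4_6, and 1.60 and 3.45 CPM in 18_2. The left was higher in 4 of these 5, with a mean log2 ratio of -0.16 ± 0.70 (SD), against 0.32 ± 1.39 in wild types and -0.20 ± 0.77 in rightward mutants. *Dlx2* ran from 1.496 to 18.6 CPM and had mean log2 ratios of -0.37 ± 1.49, -0.18 ± 0.74 and 0.30 ± 0.66 in wild types, rightward mutants and inverted mutants. Its ratio in the wild types stretched from -2.49 in 10_1 to 1.14 in 17_7.

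*Snai2* (ENSMUSG00000022676, chr16:14523425-14527252, plus strand), the zinc finger repressor of the epithelial to mesenchymal transition, was the steadiest member. In wild types its left and right levels were 51.4 and 36.9 CPM in 10_1, 48.6 and 53.5 CPM in 8_1, 47.1 and 39.6 CPM in 7_1, 44.3 and 40.9 CPM in 17_7, and 39.6 and 35.1 CPM in 22_4. In the inverted mutants they were 42.5 and 41.99 CPM in 18_2, 37.9 and 41.0 CPM in 10_3, 36.2 and 42.1 CPM in 32_2, 36.1 and 34.5 CPM in 4_6, and 31.3 and 38.4 CPM in 2_7. The left was higher in 4 of 5 wild types and the right in 3 of 5 inverted mutants, and the mean log2 ratios were -0.18 ± 0.22 and 0.11 ± 0.15 (SD, n = 5 each), with -0.04 ± 0.21 in the 11 rightward mutants.

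*Ets1* (ENSMUSG00000032035, chr9:32547517-32669116, plus strand), an ETS factor of cranial and cardiac crest and of endothelium, had left and right levels in the inverted mutants of 134 and 104 CPM in 10_3, 133 and 90.5 CPM in 18_2, 122 and 106 CPM in 32_2, 94.5 and 94.8 CPM in 2_7, and 93.5 and 83.2 CPM in 4_6. The left was higher in 4 of 5 and the sides were level in 2_7. The fitted log2 ratio of -0.25 (SE 0.08) had an edgeR adjusted p of 0.169 and an unadjusted p of 0.0113. Mean log2 ratios were -0.03 ± 0.43 (n = 5) in wild types and 0.11 ± 0.35 (n = 11) in rightward mutants. *Erbb3* (ENSMUSG00000018166, chr10:128403392-128425811, minus strand) ran from 11.6 to 42.3 CPM, with mean log2 ratios of 0.23 ± 0.54, -0.02 ± 0.30 and 0.05 ± 0.43 in wild types, rightward mutants and inverted mutants.

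The spread of the left-right ratio over embryos differed widely among the crest genes and is given as a description. With group means removed, its SD over embryos had a median of 0.18 and a 95th percentile of 0.75 over the 13058 genes with at least 200 counts in a library. *Foxd3* (1.65), *Tfap2b* (1.52), *Sox10* (1.36), *Dlx2* (0.88) and *Dlx5* (0.86) lay above that percentile, although *Foxd3*, with at most 40 counts, is not itself among those genes. *Sox9* (0.55), *Tfap2a* (0.54), *Erbb3* (0.36) and *Ets1* (0.32) lay between it and the median, and *Snai2* (0.18) lay at the median. The members above the percentile were also the 5 with the lowest median CPM, from 0.179 for *Foxd3* to 5.89 for *Dlx2*, and the part of counting depth in their spread was not tested.

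**Figure D4:**
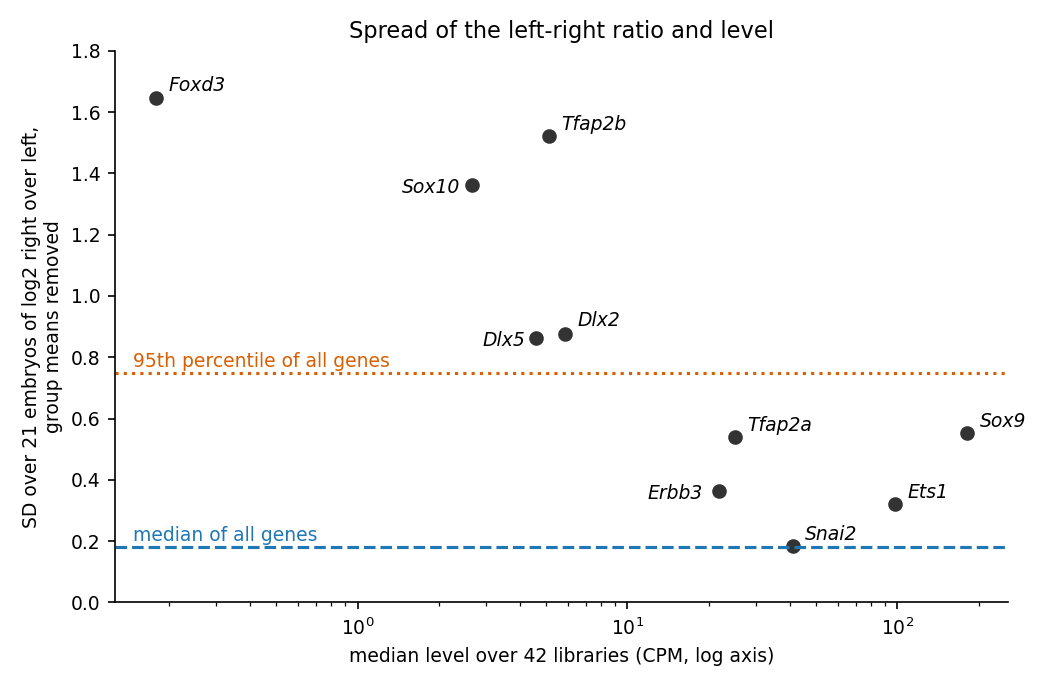
SD over 21 embryos of the log2 ratio of right over left with group means removed (vertical axis, log2 units) against the median level over 42 libraries (CPM, log axis), 1 labelled point for each of the 10 genes. The dashed line is the median of 13058 genes, 0.18, and the dotted line their 95th percentile, 0.75.

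The groups were then compared directly, first for the difference of their right over left ratios (the interaction of side and group in 1 fit of all 42 libraries). The share of all genes that passed was 0.513% for inverted mutants against wild types, 0.311% for inverted against rightward mutants and 0% for rightward mutants against wild types, where 800 of 26335 genes had an unadjusted p under 0.05 and 0 passed by DESeq2. Of the 10 members, 0 passed in each of these comparisons by edgeR or DESeq2, and 2, 1 and 0 had an unadjusted p under 0.05 by edgeR. For the first 2 comparisons the number of all genes at that threshold is not given here, so the 2 and 1 have no background. Inverted mutants minus wild types gave a log2 difference of -0.89 (SE 0.34, adjusted p = 0.244) for *Sox9* and 0.28 (SE 0.12, adjusted p = 0.307) for *Snai2*. Inverted minus rightward mutants gave -0.36 (SE 0.17, adjusted p = 0.452) for *Ets1*. Without wild-type embryo 22_4 the difference for *Sox9* was -1.26 (SE 0.25) with an adjusted p of 0.0120, the 1 embryo whose omission brought a member past the threshold here, and the number of all genes passing went from 135 to 641, or 2.39% of those tested. Because 22_4 was singled out by these same values, the p-value without it is a description. Exact two-sided permutation tests of the ratio per embryo, 60 of which were computed over ratios and levels, gave p = 0.0635 for *Sox9* and 0.0476 for *Snai2* between inverted mutants and wild types, unadjusted, and 0.0623 for *Sox9* and 0.0540 for *Ets1* between inverted and rightward mutants.

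Levels were compared between groups on each side, with sex in the model. On the left 0.0242% of all genes passed for rightward mutants against wild types, 0.0282% for inverted mutants against wild types and 0.0121% for inverted against rightward mutants. On the right the shares were 0.0121%, 0% and 0.00805% in the same order, and in the middle comparison 1474 of 24859 genes had an unadjusted p under 0.05 and 17 passed by DESeq2. Of the members, 0 of 10 passed in all 6 comparisons by edgeR or DESeq2, with 1, 1 and 2 under an unadjusted p of 0.05 on the left and 0 on the right. These were *Snai2* in each comparison on the left and *Ets1* for inverted against rightward mutants. The number of all genes at that threshold on the left is not given here, so these counts have no background. *Snai2* was lower on the left of inverted mutants than of wild types by a log2 difference of -0.32 (SE 0.09, edgeR adjusted p = 0.368). *Ets1* was higher on the left of inverted than of rightward mutants by 0.43 (SE 0.20, edgeR adjusted p = 0.625). For *Sox10* the groups' ranges overlapped on both sides, and the log2 differences were 0.32 and 0.41 on the left and 0.17 and 0.48 on the right for rightward and inverted mutants minus wild types, in comparisons that share the wild types, with SE of 0.59 to 0.88.

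Other genes of the crest pathway, 53 in 6 lists, gave a similar picture outside the inverted mutants. Among them *Isl1*, the most abundant of the derivative genes, is also counted with the heart field genes. In wild types and rightward mutants 0 of the 53 genes passed for right over left by edgeR. At an unadjusted p under 0.05 there were 2 in wild types and 1 in rightward mutants, and DESeq2 called 1 and 0. In inverted mutants 2 of 52 tested passed (12 by DESeq2), both higher on the right, *Msx2*, a homeobox gene of the neural plate border (log2 ratio 0.54, SE 0.09, adjusted p = 0.0269), and *Mitf*, the melanocyte factor (0.85, SE 0.16, adjusted p = 0.0367). The 7 border genes had a median log2 ratio of -1.67 there, beside -0.005 over all genes. The 5 with negative values, *Pax3*, *Pax7*, *Zic1*, *Zic2* and *Zic5*, singled out after their values were seen, had log2 ratios of -2.79 to -1.32 with adjusted p of 0.0573 to 0.334, and are also genes of the dorsal neural tube. In the 7 specifier genes, of which *Mycn* was the most abundant, the median was -0.06, in the 12 migration genes led by *Pdgfra* -0.0036, in the 11 arch genes led by *Ednra* 0.25 and in the 7 cardiac crest genes led by *Plxna2* -0.12, with 0 called by edgeR in each. At an unadjusted p under 0.05 these lists held 0, 8, 1 and 2 genes, and DESeq2 called 0, 4, 0 and 1. The 8 tested of 9 derivative genes, which include *Mitf*, had a median of -0.72. The border list held 5 genes at an unadjusted p under 0.05 and the derivative list 6, and DESeq2 called 4 and 3. Over all genes DESeq2 called 7.64% in this comparison. The number of all genes at an unadjusted p under 0.05 is not given here, so the list counts at that threshold have no background. The difference of inverted mutants and wild types passed by edgeR for 1 gene (7 by DESeq2, and 16 at an unadjusted p under 0.05), *Ret*, the receptor of enteric crest (log2 difference -1.01, SE 0.22, adjusted p = 0.0413).

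The tissue markers also differed between the sides. In the inverted mutants 5 of 10 neural tube markers passed as higher on the left by edgeR, with 9 at an unadjusted p under 0.05 and 9 called by DESeq2, among them *Pax6* (log2 ratio -2.02, SE 0.36, adjusted p = 0.0309), *Hes5* (-2.61, SE 0.48, adjusted p = 0.0342) and *Nkx6-1* (-1.45, SE 0.28, adjusted p = 0.0424). Their summed level was 145 to 243 CPM on the left and 77.7 to 162 CPM on the right, higher on the left in 5 of 5 embryos. Of the 9 somite markers 0 passed by edgeR, with 5 at an unadjusted p under 0.05 and 2 called by DESeq2, and their sum was 210 to 340 CPM on the left and 152 to 219 CPM on the right, also higher on the left in 5 of 5. On the other side, 6 of 8 heart muscle genes passed as higher on the right, led by *Actc1* (log2 ratio 1.12, SE 0.08, adjusted p = 0.00257), *Myl4* and *Tnnt2*. Their sum was 1228 to 2420 CPM on the left and 2304 to 4826 CPM on the right. With them passed 4 of 10 heart field genes (*Tbx5*, *Mef2c*, *Nkx2-5* and *Osr1*) and 1 of 8 foregut genes (*Hhex*). Of the heart muscle, heart field and foregut genes 7, 6 and 2 had an unadjusted p under 0.05, and DESeq2 called 7, 5 and 2. Of the other lists, 0 of 10 surface ectoderm, 0 of 8 tested placode, 0 of 10 endothelial, 0 of 6 blood and 0 of 6 dividing-cell genes passed by edgeR. In the same order 6, 3, 3, 0 and 0 of these had an unadjusted p under 0.05, and DESeq2 called 5, 2, 2, 0 and 0. Over all genes in this comparison 2.04% passed by edgeR and 7.64% by DESeq2, and the number at an unadjusted p under 0.05 is not given here.

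The left, where *Sox9* was higher in all 5 inverted mutants, was also the side with the higher neural tube and somite sums. The somite log2 ratio nearest 0 was -0.0038. The heart field, heart muscle, surface ectoderm and endothelial sums were higher on the right in 5 of 5. Their lowest log2 ratios were 0.0072 for surface ectoderm and 0.0086 for endothelium. The part of these tissues in the ratio of *Sox9* was not tested. In wild types the neural tube sum ran from 69.9 to 222 CPM on the left and 77.9 to 380 CPM on the right, with log2 ratios of -0.71 to 1.69, and in embryo 22_4 it was -0.59, with heart muscle at 0.99. In wild types and rightward mutants 0 tissue markers passed for right over left by edgeR. At an unadjusted p under 0.05 there were 6 and 4, and DESeq2 called 2 and 0.

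**Figure D5:**
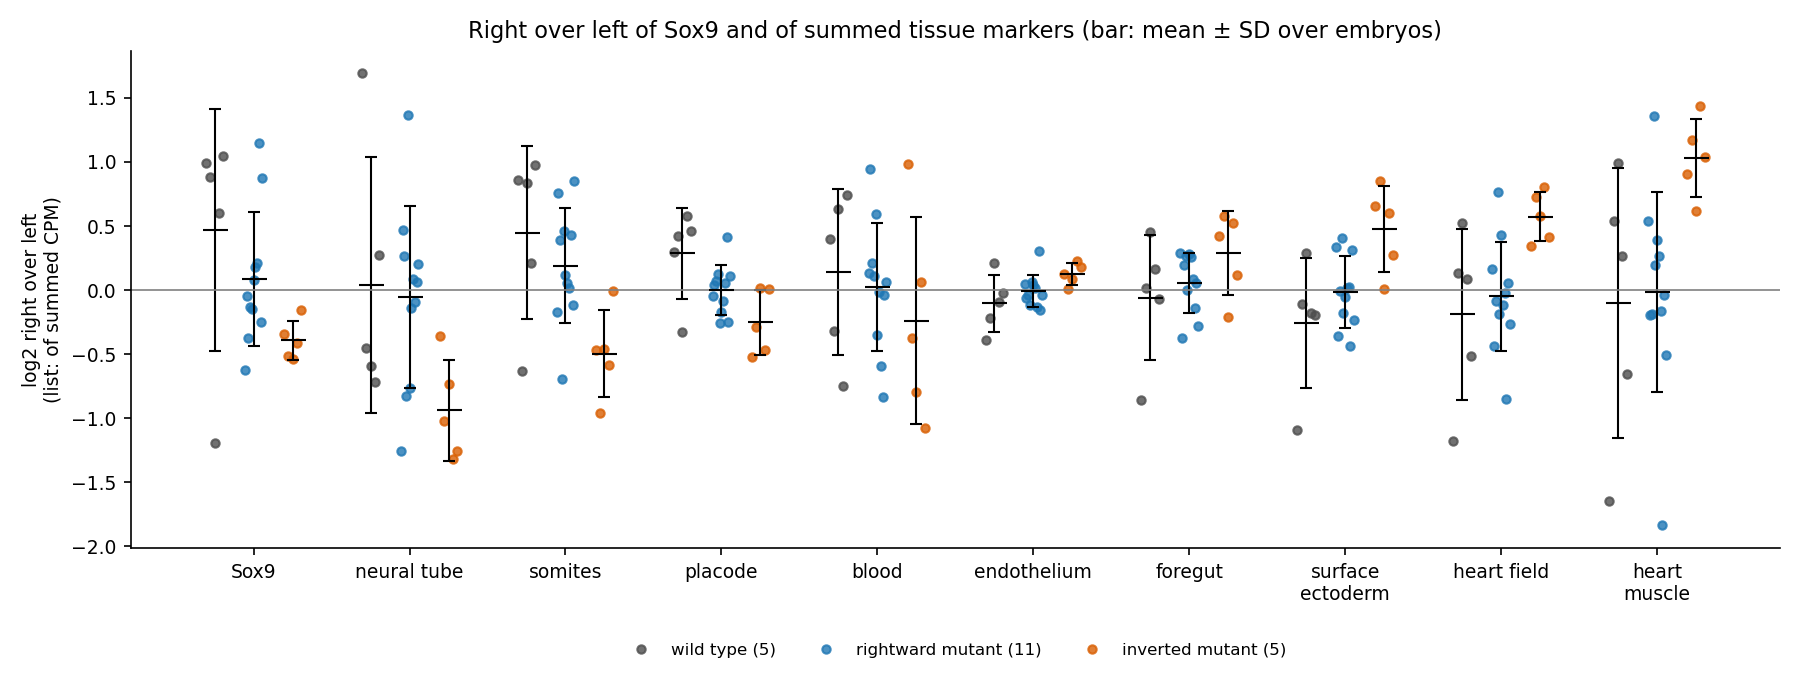
Log2 ratio of right over left of *Sox9* and of the summed CPM of 9 lists of tissue markers, 1 point per embryo in 5 wild types (grey), 11 rightward mutants (blue) and 5 inverted mutants (orange), with the mean and SD. In the inverted mutants *Sox9*, neural tube and somites lie below 0 in all 5 embryos. Heart field, heart muscle, surface ectoderm and endothelium lie above 0 in all 5. The values nearest 0 are -0.0038 for somites, 0.0072 for surface ectoderm and 0.0086 for endothelium.

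Over the 21 embryos, with group means removed, the ratio of *Sox9* went with that of the placode sum (r = 0.69, rho 0.55, and r = 0.74 without the 2 embryos farthest from the median) and against that of heart muscle (r = -0.66, rho -0.49, and -0.53). The placode sum also went with *Dlx5* (r = 0.71), *Tfap2a* (0.68), *Sox10* (0.64) and *Tfap2b* (0.61). *Oc90*, a marker of the otic vesicle, had a median under 10 counts. The neural tube sum had r between -0.60 (*Dlx2*, and -0.13 without the 2 embryos farthest from the median) and 0.38 (*Foxd3*, whose ratios rest on few counts) with the members. For *Sox9* it was 0.29 (rho 0.19, and r = 0.33 without the 2 embryos), and for *Sox9* and the somite sum 0.12 (rho 0.27, and r = 0.06). All of these are correlations of n = 21 embryos that share depth and dissection, given as a description.

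Among themselves, 19 of 45 pairs of members had a ratio correlation over 0.5 and 6 were below 0, with a median of 0.45. Among pairs without *Foxd3*, *Tfap2a* and *Sox10* (r = 0.78) and *Tfap2b* and *Sox10* (0.77) were the most alike in ratio, and *Snai2* had r of 0.05 with *Sox9* and 0.03 with *Sox10*. Without the 2 embryos farthest from the median the first 2 pairs were at 0.55 and 0.64. *Dlx2* and *Tfap2a* then stood higher, at 0.72 with and without these embryos. The counts of pairs are over all 21 embryos. For the mean level 25 of 45 pairs were over 0.5 with a median of 0.56, led after *Tfap2b* and *Sox10* by *Dlx5* and *Sox9* (r = 0.82).

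Outside the list, *Inka1* was among the 2 genes of the 13058 most like *Sox10* in ratio (r = 0.87, and 0.73 without the 2 embryos farthest from the median), and *Nmnat2* among the 2 most like *Sox10* (0.86, and 0.87) and *Tfap2b* (0.86, and 0.85) in mean level. In ratio *Tfap2b* was most like the neuronal genes *Ina* (0.86) and *Tubb3* (0.83). *Foxi2*, a forkhead gene of cranial ectoderm, was the most like both *Tfap2a* (0.91) and *Dlx5* (0.87) in ratio, followed by *Plcg2* (0.81 and 0.84). *Sox9* was most like *Mn1* (0.89) and *Ncald* (0.88) in ratio and like *Lmx1a* (0.92) and *Chst2* (0.91) in level.

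The remaining members had their nearest genes elsewhere. In ratio these were *Qtrt1* (r = 0.76) and *Nudt17* (0.75) for *Foxd3*, with its few counts, *Arhgef40* (0.76) and *Ubr4* (0.76) for *Snai2*, *Foxd2os* (0.86) and *Nvl* (0.85) for *Ets1*, *Ppfibp1* (0.85) and *Rhbdf1* (0.84) for *Dlx2*, and *Cyfip2* (0.83) and *Kcnk1* (0.82) for *Erbb3*. In mean level *Tfap2a* was nearest to *Ngfr* (0.85), the low-affinity neurotrophin receptor of crest cells, and *Myo10* (0.85), *Dlx5* to *Smim3* (0.92) and *Lmx1b* (0.90), and *Erbb3* to *Dab1* (0.89) and *Sema5a* (0.88).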

How the data were processed

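RNA from the left and right heart field of 21 mouse embryos was sequenced as 42 polyadenylated-RNA libraries from low input, with paired reads. According to the study's methods, adapters were trimmed, duplicate reads were removed, reads were aligned with STAR to GRCm39 and counted per gene with featureCounts (Subread 2.0.6), and quality was checked with FastQC and Picard. The strand setting and the handling of overlapping genes are not given in the sources used here, so reads of a gene and its antisense partner cannot be told apart. The deposited values are raw counts, which the authors had not normalised, and each library held 36073684 to 62970327 of them. The lowest chi-square per gene between any of the 861 pairs of libraries was 7.40, so none was deposited under a second name.

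Groups were taken from genotype and looping direction in the labels. The 10 genes and all lists were chosen with earlier results of these data known. All 10 were named, as were genes of other lists past the threshold (at most 3 for each list and comparison, by p), otherwise the most abundant gene of a list, and the 2 genes most like each member. Symbols came from GENCODE vM39 and matched 56310 of 56953 identifiers. Genes were filtered with filterByExpr (minimum count 5, minimum total 10, large n 50, minimum proportion 0.2), scaled by TMM and tested with the quasi-likelihood test of edgeR 4.0.16 in R 4.3.3, with Benjamini-Hochberg adjustment and a threshold of 0.05. Right over left was fitted within each group, and the difference between groups in 1 fit of all libraries, both with the embryo as a block. Levels were fitted within each side with sex as covariate. Left and right libraries of a number come from the same embryo, which is where the pairing comes from. Log2 ratios per embryo used a prior count of 2, and levels per length were CPM over the union of exons. Alternatives were DESeq2 1.42.0, library size alone, other filters, other prior counts (0.5 and 5), no replicate block, males alone, no sex covariate, the sum of both sides, and leaving out each embryo. The fits were run on simulated counts with the spread of the inverted mutants alone and no differences between embryos built in. The outcome is not reported here and does not speak for the wild types or for differences between groups. Comparisons with a common group share its libraries. Some items are not reported here.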

Additional observations from a re-analysis of the deposited data

Results flagged for a closer look

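Of 60 sets of 5 values, 9 had a sample far from the others by Dixon's test, and chance gives about 1 in 20 such sets where sets are independent. These sets share embryos, and the ratios come from the same levels, so this rate cannot show an excess here. They came from 4 embryos. Wild-type embryo 22_4 gave 6 of the 9. Its left *Sox10* level was 15.34 CPM against 0.283 to 2.62 in the other wild types, its left *Foxd3* 0.709 against 0 to 0.191, its left *Tfap2b* 29.59 against 0.966 to 5.40, and its left *Erbb3* 34.09 against 11.6 to 18.0. Its log2 ratio of right over left was -2.30 for *Tfap2b*, against 1.19 to 2.18 in the others, and -1.20 for *Sox9*, against 0.60 to 1.05. Embryo 17_7 had a right *Sox10* level of 6.343 CPM against 1.73 to 2.70 in the other wild types. Embryo 10_1 had a right *Ets1* level of 124.6 CPM against 98.2 to 103 in the other wild types. Inverted mutant 18_2 had a *Dlx5* log2 ratio of 1.08 against -0.64 to -0.37 in the others.

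The right over left ratio differed between inverted mutants and wild types for 3 genes of the other lists by edgeR's interaction test. The log2 difference was -1.01 for *Ret* (SE 0.22, adjusted p = 0.0413), -2.39 for *Tcf15*, a somite gene (SE 0.50, adjusted p = 0.0300), and 0.90 for *Tek*, an endothelial receptor (SE 0.17, adjusted p = 0.0165).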

How the results depend on the processing

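Of 291 recomputed numbers of crest genes past the threshold, 284 matched the reported number and 7 did not. All 7 concern inverted mutants. For right over left in these, where *Sox9* alone passed, 2 genes passed with DESeq2, and 0 passed in the fit of all libraries, in males alone, or with no replicate block, which ignores the pairing of sides within an embryo. Leaving out 1 embryo at a time gave 0 to 1 there, with 0 without 18_2 or without 32_2, and the fitted log2 ratio of *Sox9* stayed between -0.44 and -0.35. For the difference between inverted mutants and wild types, leaving out 1 embryo gave 0 to 1, with 1 without wild type 22_4. The numbers of all genes past the threshold moved more, with 122 of 291 beyond 1.5 times the reported number. They ran from 138 to 446 for right over left in the inverted mutants and from 17 to 641 for the difference between inverted mutants and wild types as embryos were left out. Of the 30 mean log2 ratios of a crest gene in a group, 14 took the other sign under at least 1 alternative. In wild types the mean ranged from -0.07 to 1.46 for *Sox10*, -0.09 to 1.40 for *Foxd3*, 0.46 to 1.58 for *Tfap2b*, 0.04 to 0.87 for *Dlx5* and -0.75 to 0.16 for *Dlx2*. In inverted mutants it ranged from -0.31 to -0.04 for *Sox10*, -1.26 to -0.16 for *Foxd3*, -0.58 to -0.02 for *Tfap2b*, -0.47 to 0.10 for *Dlx5* and -0.06 to 0.51 for *Dlx2*. The cause of these changes was not tested. With at most 40 counts in a library, *Foxd3* is limited by depth.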
